A study of Mus musculus with 24 samples.

Results

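Small RNA of the nucleus accumbens (NAc) was compared between male mice exposed to Subchronic Variable Stress (SCVS) and nonstressed males. The comparison took 6 of the 24 libraries of the series, 3 of stressed males (SM) and 3 of nonstressed males (NSM), each a pool of 10 NAc punches from 5 mice. All mice were C57BL/6J males, 9 weeks old by the sample labels, and SCVS alternated foot shock, tail suspension and restraint over consecutive days. Counts were deposited under the names of miR precursors, the hairpin RNAs from which mature miRs are cut, and 500 of the 1180 listed precursors had enough reads to be tested. A punch holds many kinds of cell, and a pool averages its mice, so that differences between single mice could not be seen.

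MicroRNAs (miRs) are short RNAs that pair with messenger RNAs, mostly through the seed near their 5′ end, and lower the stability or translation of those messages. A hairpin precursor gives a 5p and a 3p strand, and miRs with the same seed form a family that can share targets. Many miRs lie in clusters that are transcribed together, or inside introns of a host gene, so that neighbors often share a primary transcript. In the NAc, a part of the ventral striatum that processes reward and stress, most cells are neurons, and mir-124, mir-9, mir-128 and let-7 are among the miRs known to be abundant in neurons.

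The mature sequences below belong to precursors that differed between SM and NSM pools, and are shown because their seeds define the families described here. Seeds (bases 2 to 8) are in capitals, the sequences are from RefSeq (GRCm38.p6), and all are written 5′ to 3′. The counts do not separate the strands of a hairpin, so the level of the strand shown was not itself measured.
miR-206-3p: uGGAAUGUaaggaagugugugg
miR-30c-5p: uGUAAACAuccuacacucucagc
miR-144-3p: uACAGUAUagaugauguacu
miR-365-3p: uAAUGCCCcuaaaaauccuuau
miR-1912-3p: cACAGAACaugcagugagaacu
miR-3547-3p: uGAGCACCaccccucucucag
miR-20b-5p: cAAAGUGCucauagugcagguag
miR-155-5p: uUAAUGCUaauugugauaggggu
The next sequences belong to families whose members differed less in size, and show seeds that are shared within each family.
miR-7a-5p: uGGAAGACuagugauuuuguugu
miR-7b-5p: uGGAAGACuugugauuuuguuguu
miR-9-5p: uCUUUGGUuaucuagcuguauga
miR-15a-5p: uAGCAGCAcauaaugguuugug
miR-16-5p: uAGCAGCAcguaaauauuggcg
miR-204-5p: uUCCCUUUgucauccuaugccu
miR-211-5p: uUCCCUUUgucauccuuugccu
miR-21a-5p: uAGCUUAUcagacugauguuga

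Small RNA libraries held 5086554 to 6738555 reads in NSM pools and 6455641 to 13522287 reads in SM pools, so most stressed pools were the deeper ones. Between 665 and 767 precursors were detected per library, and the 10 most abundant took 32.6 to 35.6% of the reads. The median SD between pools was 0.150 on the log2 scale in NSM and 0.167 in SM. In mRNA libraries of the same pools, markers of striatal projection neurons summed to 4184 to 4769 CPM (read counts scaled to library size) in NSM and 4533 to 5147 CPM in SM, and none of 8 was called. Markers of cortical glutamatergic neurons, cells not native to the NAc, summed to 5.42 to 21.3 CPM in NSM and 47.9 to 197 CPM in SM, and 2 of 6, Slc17a7 and Emx1, were called higher in limma, where 6.44% of all mRNAs were called. All 6 were called higher with edgeR, with the replicate block and without SM pool 1, and 1 was called without NSM pool 1, NSM pool 2, NSM pool 3 or SM pool 3. NSM pool 1 held 108 CPM of choroid plexus markers where the other 5 pools held 34.3 to 39.6 CPM. Most of this excess was 1 gene, Ttr, at 66.1 CPM in NSM pool 1 and 0.503 to 2.61 CPM in the other 5 pools.

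Few miRs differed between stressed and nonstressed males, and the differences were mostly small. A miR was called where limma's unadjusted p was under 0.05 and the levels differed at least 1.3-fold, and by this rule 26 of 500 miRs differed between SM and NSM pools (5.2%), of which 14 rose (2.8%) and 12 fell (2.4%). The median fold change was 1.40 among those that rose and 1.55, NSM over SM, among those that fell. After Benjamini-Hochberg adjustment over the 500 miRs, limma left 0 below 0.05, against 62 at an unadjusted p under 0.05 (12.4%). At the same adjusted threshold edgeR gave 1 miR and DESeq2 gave 6. The smallest adjusted p values in limma were 0.0676 for mir-206 and 0.0703 for mir-30c-1 and mir-30c-2. SM and NSM pools did not overlap for 21 of the 26 called miRs, and for 98 of all 500 (19.6%). With 3 pools against 3, an exact permutation test of a single miR cannot give a p under 0.1, so the p values are from models fitted over all miRs. With the cortical marker level of each pool as a covariate 22 miRs were called, 13 of them among the 26. The 13 calls that were lost were of mir-1912, mir-466n, mir-20b, mir-1951, mir-7224, mir-7010, mir-155, mir-378d, mir-5134, mir-467a-3, mir-7042, mir-6948 and mir-466c-1, each with a mean under 100 reads per library. With the covariate some of them kept a log2 fold change near or above its first size without passing the p bound, mir-1951 at 1.35 (1.41 without the covariate), mir-378d at 0.72 (0.63), mir-7042 at 0.66 (0.66), mir-7224 at 0.48 (0.40) and mir-20b at -0.73 (-0.74). mir-1912 was at 0.52 (0.62), mir-6948 at -0.41 (-0.46) and mir-466n at -0.90 (-1.23). Others were closer to 0, mir-7010 at -0.15 (-0.89), mir-5134 at -0.48 (-0.99), mir-155 at -0.32 (-0.52), mir-467a-3 at -0.36 (-0.51) and mir-466c-1 at -0.33 (-0.62). Whether cortical tissue in the punches had a part in these differences was not otherwise tested.

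Called miRs covered a wide range of abundance. The mean was over 1000 reads per male library for 5 called miRs, of which 4 rose (mir-30c-1, mir-30c-2, mir-1a-1 and mir-144) and mir-187 fell. It was under 100 reads for 16, of which 10 fell and 6 rose. For 5 of these (mir-466n, mir-1951, mir-7010, mir-5134 and mir-7042) the mean was under 10 reads. A miR was tested where the libraries of any 1 group held over 5 reads. A low miR can therefore enter through the group where it is high. Of the male groups, mir-7042 passed this filter only in SM, with 15, 17 and 11 reads against 4, 5 and 5 in NSM. mir-466n and mir-7010 passed only in NSM, and mir-1951 and mir-5134 in neither. Over all 500 tested miRs 200 were above 1000 reads, 44.4% below 100 and 57 below 10, and whether abundance differed between miRs that rose and fell was not tested. None of the 10 most abundant miRs was called.

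**Figure D1:**
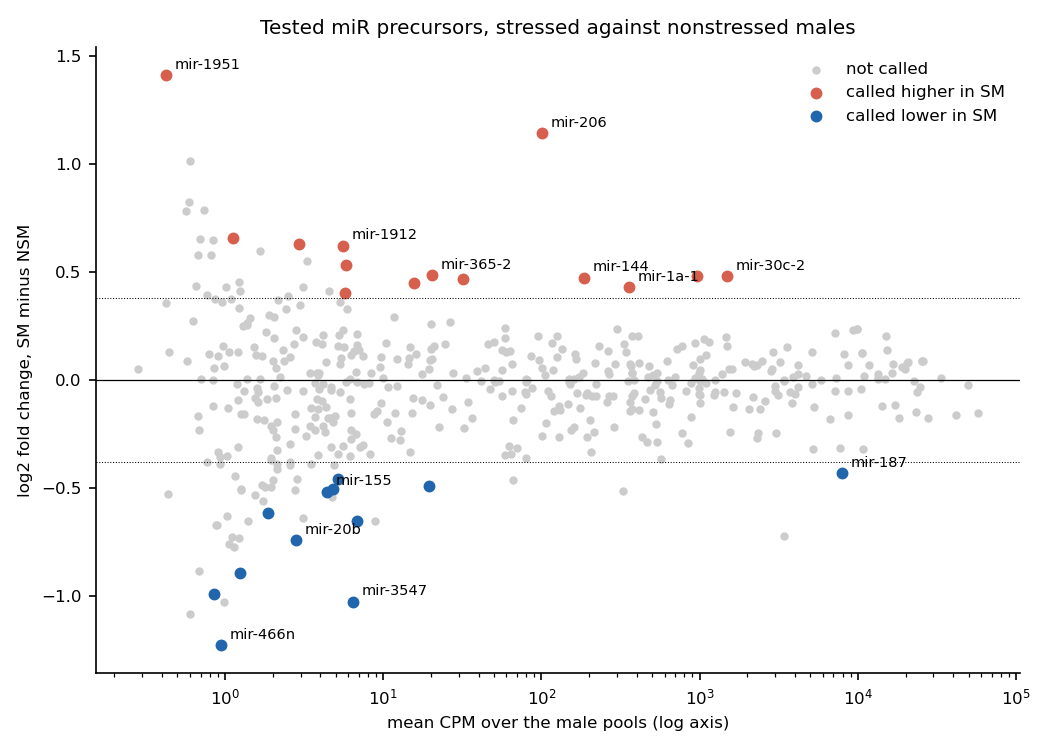
Log2 fold change (SM minus NSM) of each of the 500 tested miR precursors against its mean CPM over the male pools, on a log axis. Red points are the 14 miRs called higher, blue points the 12 called lower, grey points the rest, and dotted lines the 1.3-fold bound. The called points at the right of the plot are mostly red and lie close to the bound, and the points farthest from 0 are at low CPM.

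Of the 8 tested miRs best known from muscle, 4 rose, against 2.8% of all tested miRs. They were mir-206, mir-1a-1, mir-133a-2 and mir-133a-1. mir-206, a miR of skeletal muscle that is also found in brain, had 67.8, 73.4 and 48.0 CPM in the NSM pools and 165, 139 and 111 CPM in the SM pools. All SM pools were above all NSM pools, and SM pool 3, the lowest of its group, was still above the highest NSM pool. The log2 fold change was 1.14 (SE 0.22, adjusted p = 0.0676, limma), a 2.21-fold higher level. mir-206 was called in all 18 alternative analyses of the comparison. In a tissue punch, fewer cells of a type and less RNA per cell cannot be told apart, here and in every result below. The mir-206 precursor lies in no annotated gene of the same strand, at chr1:20669091-20669163 (NCBIM37), in a cluster with mir-133b.

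mir-1a-1, of the same family as mir-206 and a regulator of muscle differentiation, had 302, 354 and 263 CPM in the NSM pools and 467.5, 387 and 378 CPM in the SM pools. Its log2 fold change was 0.43 (SE 0.11, adjusted p = 0.134, limma), and it was no longer called without NSM pool 3 (0.35) or SM pool 1 (0.33). mir-133a-2, its neighbor in the genome and partner in muscle, had 14.7, 13.8 and 11.1 CPM in the NSM pools and 17.7, 17.3 and 19.6 CPM in the SM pools. Groups did not overlap for either miR, and the log2 fold change of mir-133a-2 was 0.45 (SE 0.14, adjusted p = 0.181, limma), which was under the fold bound without NSM pool 3 (0.35). The cluster of mir-1a-1 (chr2:180123753-180123829) and mir-133a-2 (chr2:180133084-180133187) lies outside the exons and introns of annotated genes on the same strand. mir-133a-1, a copy on chromosome 18, had 3.86, 5.75 and 4.76 CPM in the NSM pools and 7.63, 6.77 and 5.86 CPM in the SM pools and also rose, with a log2 fold change of 0.53 (SE 0.21, adjusted p = 0.279, limma). It was not called without NSM pool 1 (0.39) or SM pool 1 (0.45). Both copies give miR-133a, so their counts can share reads.

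None of the muscle miRs fell, and the 8 had a median log2 fold change of 0.43 against -0.01 over all tested miRs. The other 4 were mir-133b (0.43), mir-499 (0.16), mir-208b (0.08) and mir-208a (-0.17), of which mir-133b and mir-208a had a mean under 10 reads per library. mir-499, mir-208a and mir-208b lie in myosin heavy chain genes and are known from heart and slow muscle. The list summed to 339 to 461 CPM in NSM and 528 to 674 CPM in SM pools. In the mRNA libraries of these pools the 10 skeletal muscle markers summed to 5.06 to 5.86 CPM in NSM and 5.17 to 6.22 CPM in SM. None of the 6 that were tested was called in limma over all 12 libraries, among 1198 of 18593 mRNAs called (6.44%), and the troponin gene Tnnc2 had no read. The tested markers had log2 fold changes on both sides of 0, Mylpf at 0.16, Actn3 at 0.17, Tnni2 at -0.35, Myh2 at -0.50 and Myh4 at -1.43. Myh4 was called lower with edgeR (-1.47) and with the replicate block (-1.43), and Myh2 without NSM pool 2 (-0.64) or SM pool 1 (-0.68), both genes of fast myosin heavy chains. Acta1, skeletal muscle actin, was the most abundant of them, with a log2 fold change of 0.20 (SE 0.12, adjusted p = 0.361, limma).

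The mir-30 family, abundant in many tissues including brain, stood on the higher side. mir-30c-1 had 821, 688 and 920.1 CPM in the NSM pools and 1216, 1161 and 994 CPM in the SM pools, and mir-30c-2 had 1281, 1034 and 1413 CPM in the NSM pools and 1865, 1768 and 1538 CPM in the SM pools. All SM pools of both were above all NSM pools, and NSM pool 2 was the lowest in each. Log2 fold changes were 0.48 (SE 0.10, adjusted p = 0.0703, limma) and 0.48 (SE 0.11, adjusted p = 0.0703, limma). Both were under the fold bound without NSM pool 2, at 0.37 and 0.36. The precursors give the same 5p sequence, miR-30c-5p, from different chromosomes, mir-30c-1 in an intron of Nfyc (chr4:120442139-120442227) and mir-30c-2 at chr1:23298540-23298623, so their counts can share reads and are not independent measurements. 

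Of the 5 tested members of the mir-30 family all had a log2 fold change above 0, with a median of 0.20. mir-30b, at 0.20, had an unadjusted p under 0.05 without reaching the fold bound, and its groups overlapped. The most abundant members were closest to 0, mir-30a at 0.12 and mir-30d at 0.05. mir-30a and mir-30c-2 were listed as a cluster by name, although they lie more than 10000 bases apart. mir-30b and mir-30d form a cluster by position. mir-30e, the neighbor of mir-30c-1, had 0 reads in every male library. Its hairpin overlaps that of mir-30f on the opposite strand, and precursors that overlap in this way were at or near 0 reads. The counts of mir-30e therefore do not show that it was absent.

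**Figure D2:**
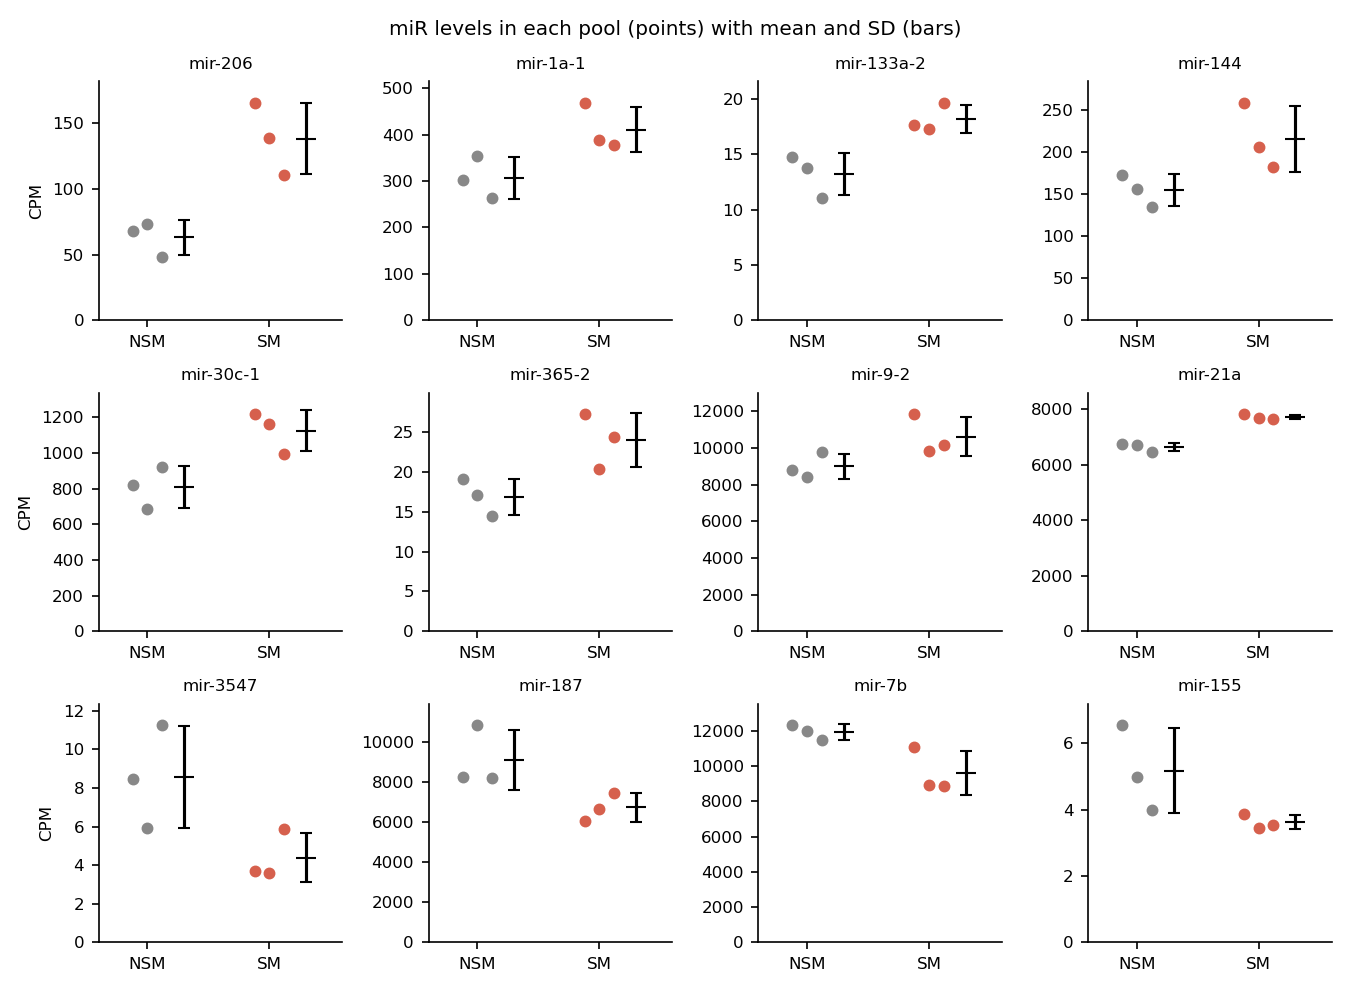
CPM of 12 miRs in each NSM (grey) and SM (red) pool, with the mean and SD of the 3 pools as bars, and each vertical axis starting at 0. mir-206, with means of 63.1 and 138 CPM, has the widest gap among those that rose, and mir-9-2, mir-21a and mir-7b show smaller gaps at far higher levels.

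mir-144, which is processed with mir-451a in developing red blood cells, had 173, 156 and 135 CPM in the NSM pools and 258, 206.5 and 182.2 CPM in the SM pools. All SM pools were above all NSM pools, with a log2 fold change of 0.47 (SE 0.15, adjusted p = 0.181, limma). Without SM pool 1, the highest, it was 0.34 and not called. The precursor lies in no annotated gene of the same strand, at chr11:77886507-77886572. mir-451a and mir-486, the other red cell miRs, had 0 reads in every male library. The hairpin of mir-451a overlaps that of mir-451b on the opposite strand, and precursors that overlap in this way were at or near 0 reads. Its counts here therefore do not show that it was absent, and the authors listed miR-451a among the miRs upregulated in stressed males. Red blood cell mRNAs moved in the same pools. The 6 listed genes, globins, Alas2 and Slc4a1, summed to 21.8 to 27.4 CPM in NSM and 38.5 to 47.3 CPM in SM. All 5 that were tested (Hba-a1, Hba-a2, Hbb-b1, Hbb-b2 and Alas2) were called higher, where 6.44% of all mRNAs were called. Their log2 fold changes were from 0.72 to 0.88. Whether blood left in the punches had a part in mir-144 was not tested.

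Other miRs that rose had fewer reads. mir-365-2 had 19.0, 17.0 and 14.5 CPM in the NSM pools and 27.2, 20.4 and 24.4 CPM in the SM pools, without overlap, and a log2 fold change of 0.49 (SE 0.16, adjusted p = 0.181, limma), which without SM pool 1 was 0.38 and just under the fold bound. mir-365-1, which gives the same mature strand from another locus next to mir-193b, had a log2 fold change of 0.26 and was not called, although its groups did not overlap. mir-1912 lies in an intron of Htr2c (chrX:143443984-143444070), the gene of a serotonin receptor, and had 5.05, 4.02 and 4.002 CPM in the NSM pools and 6.35, 7.80 and 6.17 CPM in the SM pools. Its SM pools were all higher, the log2 fold change was 0.62 (SE 0.20, adjusted p = 0.181, limma), and it was called when any of the 6 libraries was left out. The other 4 miRs of the Htr2c introns were not called, and the 5 together ran from -0.12 to 0.62 with a median of 0.05. Htr2c mRNA had a log2 fold change of 0.12 (SE 0.08, adjusted p = 0.403, limma).

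mir-5099 had 24.8, 34.7 and 21.5 CPM in the NSM pools and 41.9, 33.4 and 34.9 CPM in the SM pools, and NSM pool 2 overlapped the SM pools. Its log2 fold change was 0.47 (SE 0.15, adjusted p = 0.181, limma), and 0.35 or 0.36 without NSM pool 3 or SM pool 1, when it was not called. mir-378d (0.63), mir-7224 (0.40), mir-7042 (0.66) and mir-1951 (1.41) rose with means of 26.5, 49.0, 9.50 and 3.83 reads per library. mir-1951 had the highest fold change of all tested miRs with the fewest reads among those called. mir-378d was not called without NSM pool 1, NSM pool 3 or SM pool 2 (0.69, 0.48 and 0.36) and was at 0.057 when all libraries were thinned to the smallest, and mir-7224 was not called without NSM pool 2, NSM pool 3 or SM pool 1 (0.31, 0.44 and 0.32). mir-7042 was not called without NSM pool 1 or SM pool 3 (0.44 and 0.56), and mir-1951 without NSM pool 1, NSM pool 3 or SM pool 1 (1.38, 0.76 and 1.32). The other 3 members of the mir-378 family, known from metabolic tissues, were not called, and the family's median was 0.05.

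Among the miRs that fell, mir-3547 had the smallest p. It had 8.47, 5.94 and 11.2 CPM in the NSM pools and 3.69, 3.61 and 5.86 CPM in the SM pools. NSM pool 3 was the highest and SM pools 1 and 2 the lowest, without overlap. The log2 fold change was -1.03 (SE 0.27, adjusted p = 0.134, limma), and it was called in all 18 alternative analyses. The precursor lies in an intron of Baiap3 (chr17:25382496-25382583), which encodes a Munc13-related protein of vesicle traffic. Baiap3 mRNA, read from the other RNA fraction of the same pools, had 91.3, 83.1 and 137 CPM in the NSM pools and 60.8, 43.2 and 53.9 CPM in the SM pools. It fell with a log2 fold change of -0.96 (SE 0.18, adjusted p = 0.0170, limma). NSM pool 3 was the highest for the miR and for its host gene. Among the SM pools the highest was SM pool 3 for the miR and SM pool 1 for Baiap3. The adjusted p of Baiap3 was over 0.05 without NSM pool 3 (0.0596) or SM pool 2 (0.0945), while it was called when any single library was left out. Baiap3 was the only called one of the 10 tested host genes of called miRs, where 6.44% of all mRNAs were called.

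The other 9 host genes ran from -0.34 to 0.12 on the log2 scale. Hosts are genes on the same strand that contain the precursor, and of the 26 called miRs 25 could be placed on NCBIM37 and 13 lay in a host gene, 9 in an intron and 4 in an exon. The lowest of the 9 was Sfmbt2, described below. Nfyc, host of mir-30c-1, had 0.04, Rpl13a, host of mir-5121, had -0.03, and Abcf1, host of mir-877, had -0.08.

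**Figure D3:**
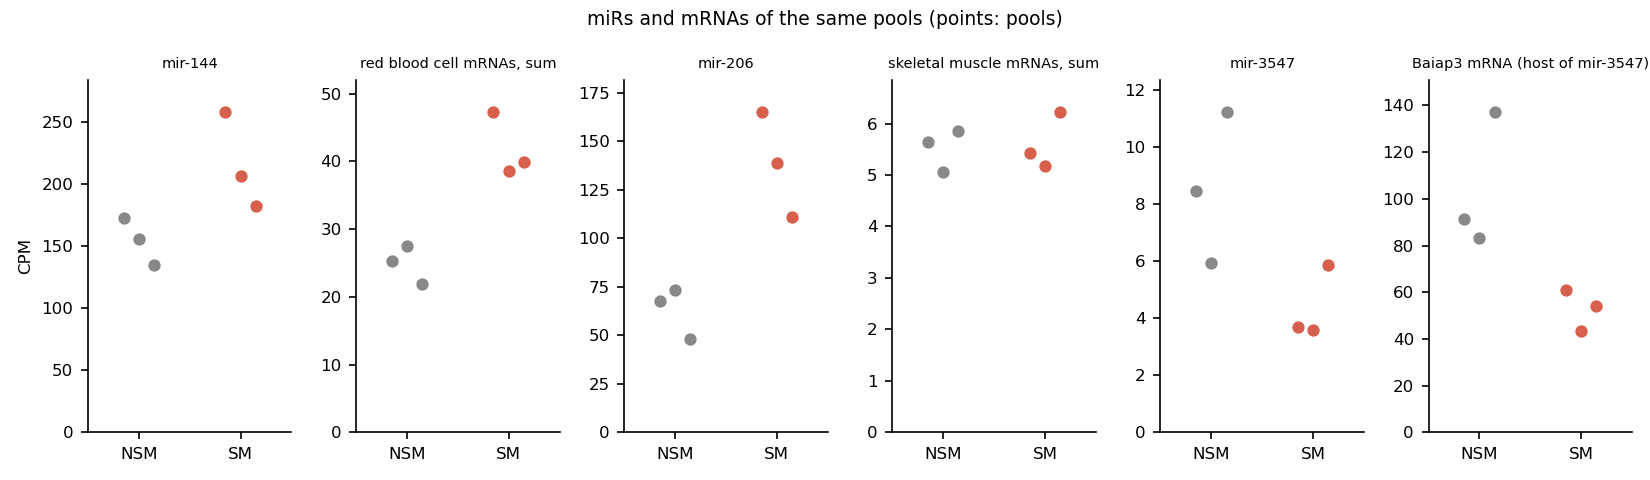
CPM in each NSM (grey) and SM (red) pool of mir-144 beside the summed red blood cell mRNAs, of mir-206 beside the summed skeletal muscle mRNAs, and of mir-3547 beside the mRNA of its host gene Baiap3. The red cell mRNAs sum to 21.8 to 27.4 CPM in NSM and 38.5 to 47.3 CPM in SM as mir-144 is higher, the muscle mRNAs overlap at 5.06 to 6.22 CPM, and Baiap3 is lower in all SM pools as is mir-3547.

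Among the called miRs with a mean over 1000 reads per library, mir-187 alone fell. It had 8288, 10851 and 8216 CPM in the NSM pools and 6072, 6661 and 7488 CPM in the SM pools, without overlap and with NSM pool 2 above the rest. The log2 fold change was -0.43 (SE 0.12, adjusted p = 0.181, limma), and it was -0.30 without NSM pool 2 and -0.36 without SM pool 1, below the fold bound each time. mir-5121 had 7.14, 9.77 and 7.81 CPM in the NSM pools and 4.12, 5.52 and 6.48 CPM in the SM pools, with a log2 fold change of -0.65 (SE 0.19, adjusted p = 0.181, limma), and was called in all 18 alternatives. It lies in an exon of the ribosomal protein gene Rpl13a (chr7:52382288-52382361), so reads of the miR and of its host mRNA cannot be told apart by position. mir-877, in an intron of Abcf1, had 18.1, 24.5 and 25.5 CPM in the NSM pools and 14.3, 15.5 and 18.8 CPM in the SM pools, and only SM pool 3 reached the range of NSM. Its log2 fold change was -0.49 (SE 0.17, adjusted p = 0.214, limma) and was -0.38 without NSM pool 3, with the call lost.

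Immune and proliferation miRs were among those of low count. mir-155, induced in activated macrophages, microglia and lymphocytes, had 6.54, 4.98 and 4.002 CPM in the NSM pools and 3.86, 3.46 and 3.55 CPM in the SM pools. It fell without overlap, with a log2 fold change of -0.52 (SE 0.22, adjusted p = 0.332, limma), and lost the call without NSM pool 1, the highest (-0.29), NSM pool 2 (-0.54), SM pool 2 (-0.47) or SM pool 3 (-0.51). The other microglia and leukocyte miRs that were tested had log2 fold changes above 0, mir-146a at 0.17 (unadjusted p under 0.05, fold under 1.3), mir-223 at 0.43 and mir-150 at 0.17. Microglia mRNAs summed to 218 to 234 CPM in NSM and 246 to 273 CPM in SM. In limma 2 of 5, P2ry12 and Aif1, were called higher, where 6.44% of all mRNAs were called. The number of microglia mRNAs called was 0 with library size scaling or without SM pool 2, and up to 3 without SM pool 3. mir-20b, of the mir-17 family of cell cycle miRs, had 4.31, 2.87 and 3.43 CPM in the NSM pools and 1.80, 2.65 and 1.85 CPM in the SM pools. Its log2 fold change was -0.74 (SE 0.28, adjusted p = 0.275, limma) and the call was lost without NSM pool 1 (-0.54) or SM pool 1 (-0.61).

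The neighbors of mir-20b in the cluster from mir-106a to mir-363 were not called. The 3 others that were tested were above 0, up to 0.29 for mir-363, and the cluster's median was 0.11. In the related cluster from mir-17 to mir-92a-1 none of 6 was called, 3 lay above and 3 below 0, and the range was -0.07 to 0.11. mir-17, mir-20a, mir-93 and mir-106b carry the seed of mir-20b and lay between -0.07 and 0.03.

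The largest cluster by precursors, in an intron of the imprinted gene Sfmbt2, holds repeat-like copies of mir-297, mir-466, mir-467 and mir-669. By name 81 precursors were listed for it, of which 32 were tested. Of the 32, 3 fell, against 2.4% of all tested miRs, and none rose, with a median of -0.23. By position on NCBIM37, 30 tested precursors lay in the cluster, of which 3 fell, with a median of -0.24. The log2 fold change was below 0 for 25 of the 32, and for 53.4% of all tested miRs. Groups did not overlap for 9 of the 32, and for 19.6% of all tested miRs. The 32 summed to 576 to 632 CPM in NSM and 478 to 762 CPM in SM, so the groups overlapped by sum, with SM pool 1 the highest. mir-669c had by far the most reads of them, 2188 to 3258 per NSM library and 2333 to 7349 per SM library, and was not called. mir-466n had 1.19, 1.15 and 1.72 CPM in the NSM pools and 0.515, 0.809 and 0.309 CPM in the SM pools, a log2 fold change of -1.23 (SE 0.45, adjusted p = 0.252, limma) with a mean of 7 reads per library. mir-467a-3 had 5.80, 5.56 and 5.72 CPM in the NSM pools and 4.29, 4.41 and 3.09 CPM in the SM pools and mir-466c-1 had 2.53, 2.11 and 1.91 CPM in the NSM pools and 1.89, 1.03 and 1.70 CPM in the SM pools, with log2 fold changes of -0.51 and -0.62. SM pools were below NSM pools for all 3, as they were for mir-467e (-0.33), which missed the fold bound. mir-466n was not called without NSM pool 3 (-1.04). mir-467a-3 was called without SM pool 2 but lost the call without any other pool, at -0.40 to -0.56. mir-466c-1 was not called without SM pool 2 (-0.28) or when 1 of the NSM pools was left out (-0.48 to -0.67), and was at -0.25 when all libraries were thinned to the smallest.

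By family name the medians were -0.46 for 5 tested copies of mir-466, -0.21 for 14 of mir-467 and -0.29 for 12 of mir-669. The copies resemble each other, so reads can be split between them, and their number is not a number of independent measurements. Sfmbt2 mRNA had 6.07, 5.53 and 6.82 CPM in the NSM pools and 5.16, 4.36 and 5.05 CPM in the SM pools. Its log2 fold change was -0.34 (SE 0.12, adjusted p = 0.141, limma), short of the fold bound, and it was called without NSM pool 2 (-0.40) or SM pool 1 (-0.38) and with library size scaling (-0.39). Without NSM pool 3 or SM pool 2 it was -0.26 each time, with unadjusted limma p values of 0.0725 and 0.0880. With the cortical marker covariate the median of the precursors listed by name was -0.08. None of their 3 calls remained, with mir-466n at -0.90, mir-467a-3 at -0.36 and mir-466c-1 at -0.33.

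The remaining miRs that fell were mir-7010 (-0.89), mir-5134 (-0.99) and mir-6948 (-0.46), with means of 9.33, 6.17 and 41.2 reads per library. When 1 library was left out, mir-7010 kept its call only without SM pool 1 and mir-6948 only without SM pool 2, and mir-5134 lost it without NSM pool 1, NSM pool 2, SM pool 1 or SM pool 2. The log2 fold changes nearest to 0 in these fits were -0.81 (without SM pool 2), -0.34 (without SM pool 3) and -0.69 (without NSM pool 2). mir-7010 lies in an exon of Gucy1a3, so its reads and those of the host mRNA cannot be told apart by position. mir-7042 lies in an intron of Tatdn2, and mir-6948 could not be placed. By number, mir-7010, mir-6948 and mir-7042 belong to the mirtron-like precursors from mir-6896 to mir-7094, many of which are short introns that fold into hairpins. Of 197 such precursors 58 were tested, and 1 rose and 2 fell, where 2.8% of all tested miRs rose and 2.4% fell. The median was -0.04, and 18 of the 58 were under 10 reads.

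**Figure D4:**
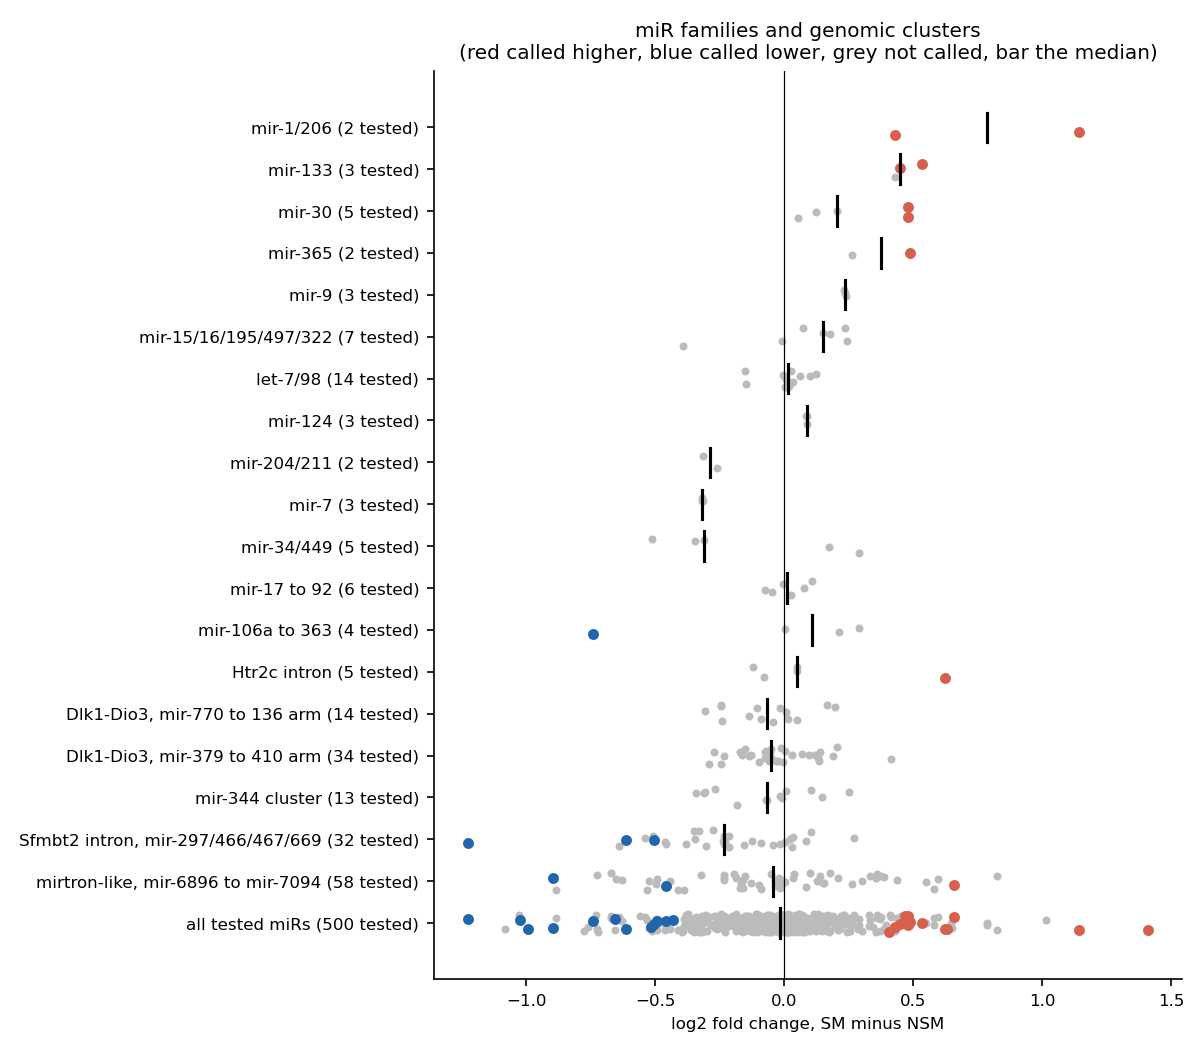
Log2 fold changes (SM minus NSM) of the tested members of miR families and genomic clusters, 1 point per precursor, red where called higher, blue where called lower and grey where not called, with a bar at the median of each list. The muscle families of mir-1, mir-206 and mir-133 lie to the right of 0, the mir-7 and Sfmbt2 points mostly to the left, and let-7, mir-124 and the Dlk1-Dio3 arms are centered near 0.

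Between the calls and the bulk of miRs lay 36 precursors with an unadjusted p under 0.05 and less than 1.3-fold change, 13 higher and 23 lower, of which 30 had a mean over 1000 reads per library. The 5 with the smallest p were mir-3059, mir-21a, mir-298, mir-7a-1 and mir-7a-2. mir-21a, widely expressed and raised in many injured tissues, had 6746, 6708 and 6474 CPM in the NSM pools and 7816, 7685 and 7656 CPM in the SM pools, a log2 fold change of 0.22 (SE 0.06, adjusted p = 0.134, limma). The NSM and SM pools each lay within a narrow range and far from overlap. Its host gene Vmp1 had 0.18 (SE 0.06, adjusted p = 0.128, limma). mir-3059 had 508, 543.1 and 474 CPM in the NSM pools and 432, 412 and 404 CPM in the SM pools (-0.29), and mir-298, in the imprinted Gnas region, had 665, 574 and 696 CPM in the NSM pools and 473, 511 and 514 CPM in the SM pools (-0.37). mir-298 was the miR nearest to the fold bound from below, at 0.775-fold, followed by mir-188 (-0.36), mir-344h-1 (-0.34), mir-135b (-0.33) and mir-467e. On the side of the p bound the nearest uncalled miRs were mir-547, mir-489, mir-7047, mir-7084 and mir-3058, with unadjusted limma p values from 0.0523 to 0.0611, and all but mir-489 had a mean under 10 reads per library. mir-298 passed the fold bound without NSM pool 2 (-0.45), SM pool 2 (-0.39) or SM pool 3 (-0.39).

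All 3 precursors of the mir-7 family, enriched in neurons and endocrine cells and bound by the circular RNA Cdr1as, were lower in SM. mir-7b had 12314, 12006 and 11467 CPM in the NSM pools and 11055, 8929 and 8867 CPM in the SM pools. mir-7a-1 and mir-7a-2, which share miR-7a-5p, had 5499, 5637 and 6181 CPM in the NSM pools and 5262, 4104 and 4574 CPM in the SM pools, and 8187, 8303 and 9172 CPM in the NSM pools and 7808, 6119 and 6795 CPM in the SM pools. Pools of the groups did not overlap for any of the 3, as for 19.6% of all tested miRs, and SM pool 1 was the highest of its group in each. Log2 fold changes were -0.32 (SE 0.10, adjusted p = 0.181, limma), -0.31 and -0.32, under the bound, so that none was called. Without SM pool 1 they were -0.41, -0.41 and -0.42 and all 3 were called, while without NSM pool 1 the unadjusted p of mir-7b was 0.0637.

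The 3 precursors of mir-9, a miR of neural progenitors and neurons, were higher at an unadjusted p under 0.05. mir-9-2 had 8783, 8429 and 9772 CPM in the NSM pools and 11837, 9822 and 10177 CPM in the SM pools, and its groups did not overlap, while those of mir-9-1 and mir-9-3 did. Log2 fold changes were 0.24, 0.24 and 0.23 for copies that share their mature sequence, and each was at 0.15 without SM pool 1, with unadjusted limma p values of 0.108 to 0.124. Without NSM pool 2 these p values were 0.0778 to 0.0988, and without NSM pool 1 those of mir-9-2 and mir-9-3 were 0.0523 and 0.0620. In the family of mir-15 and mir-16, which represses cell cycle genes, mir-15a (0.24), mir-16-1 (0.18) and mir-16-2 (0.15) were higher without overlap, and the median of 7 tested members was 0.15. Both mir-16 precursors give miR-16-5p, so their counts can share reads. Groups did not overlap for 3 of the 7, mir-15a, mir-16-1 and mir-16-2, and for 19.6% of all tested miRs. Without NSM pool 1 the unadjusted limma p of these 3 was between 0.0674 and 0.0747, and that of mir-16-1 and mir-16-2 was over 0.05 as well without NSM pool 3, SM pool 1 or SM pool 3.

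mir-204 and mir-211, with the same seed and abundant in choroid plexus and pigment epithelium, were lower at an unadjusted p under 0.05, at -0.26 and -0.31. mir-211 had 84.3, 75.9 and 72.6 CPM in the NSM pools and 53.8, 65.8 and 70.2 CPM in the SM pools. NSM pool 1, the pool with high mRNA of the choroid plexus gene Ttr, was the highest for mir-204 (525 CPM) and for mir-211. Without that pool the log2 fold changes were -0.15 and -0.22, with unadjusted limma p values of 0.187 and 0.116. Without SM pool 1 they were -0.13 and -0.20, and without SM pool 3 mir-211 was at -0.38 and was called. On the list of ciliated and choroid epithelium miRs none of 9 tested was called, and the median was -0.26. The family of mir-34 and mir-449, found in ciliated cells, had 5 tested members, none called, with a median of -0.31.

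The abundant miRs of neurons were not called. The 10 with the most reads were let-7b, mir-128-1, mir-29b-2, let-7f-2, mir-29b-1, the 3 copies of mir-124, mir-139 and mir-128-2, with log2 fold changes between -0.18 and 0.09. let-7b alone took 5.08 to 6.35% of the reads of a library, with 63589, 64844 and 53015 CPM in the NSM pools and 57713, 50570.2 and 54408 CPM in the SM pools, and the groups overlapped. mir-124, which represses non-neuronal messages, was 0.09 (SE 0.07) with SM pools just above NSM pools, and its sign reversed (-0.013) with the cortical marker covariate. Of the 16 tested neuronal miRs none was called. The 3 copies of mir-9 were higher and mir-137 (-0.17) was lower at an unadjusted p under 0.05, and the median was 0.05. All 14 let-7 and mir-98 precursors lay between -0.15 and 0.12, with a median of 0.01.

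In the imprinted Dlk1-Dio3 domain, whose noncoding RNAs are expressed from the maternal chromosome, none of the tested miRs was called. In the arm from mir-770 to mir-136, 9 of 14 were below 0, with a median of -0.07, and mir-770, mir-431 and mir-370 were lower at an unadjusted p under 0.05 (-0.25, -0.24 and -0.24) without overlap. Groups did not overlap for 5 of the 14, and for 19.6% of all tested miRs. The unadjusted limma p of mir-770 was 0.0510 without NSM pool 1 and 0.0529 without NSM pool 3. mir-770 lies in an exon of Meg3, a noncoding RNA of the domain. Meg3 fell in the mRNA libraries with a log2 fold change of -0.49 (SE 0.17, adjusted p = 0.134, limma), and it was not called without NSM pool 3 (-0.30), SM pool 1 (-0.39) or SM pool 2 (-0.37). In the arm from mir-379 to mir-410, 23 of 34 were below 0, with a median of -0.05. mir-543 (-0.29) and mir-154 (-0.24) were lower and mir-323 (0.19) was higher at an unadjusted p under 0.05.

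Other families and clusters with at least 3 tested members held no called miR. Given as the number tested and the median log2 fold change, the families were mir-10 with mir-99 and mir-100 (5, -0.01), mir-125 (3, 0.08), mir-29 (4, -0.05), mir-181 (6, 0.00), mir-103 with mir-107 (3, 0.15), mir-26 (3, 0.01), mir-25 with mir-92 and mir-363 (6, 0.09) and mir-19 (3, 0.00). They were also mir-130 with mir-301 (4, -0.15), mir-148 with mir-152 (3, -0.04), mir-135 (3, -0.05), mir-199 (3, 0.16), mir-200 with mir-141 and mir-429 (5, 0.03), mir-376 (3, -0.06), mir-154 (13, -0.06) and mir-101 (3, 0.05). Of these, mir-148a (mir-148 family), mir-135b and mir-154 were lower at an unadjusted p under 0.05. Clusters were mir-106b to mir-25 (3, 0.01), mir-183 to mir-182 (3, 0.17), mir-200b to mir-429 (3, 0.03), let-7a-1 to let-7d (3, 0.02), let-7a-2 to mir-125b-1 (3, 0.07), let-7e to mir-125a (3, 0.08), mir-322 to mir-450b (7, -0.02) and mir-344 (13, -0.07). The median over all tested miRs was -0.01, and in the mir-344 cluster mir-344h-1 and mir-344h-2 were lower at an unadjusted p under 0.05.

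The same 26 miRs were read in female pools, 3 stressed (SF) and 3 nonstressed (NSF), which hold other mice and other controls. The sign of the stress effect was the same in females for 13 and opposite for 13, and 5 had an unadjusted p under 0.05 in females. mir-30c-1 and mir-30c-2 were higher at an unadjusted p under 0.05 in stressed females too (0.23 and 0.26), as was mir-7224 (0.49). mir-206 went the other way, with 203 ± 51.0 CPM in NSF and 130.0 ± 28.1 CPM in SF (SD, n = 3 pools) against 63.1 ± 13.3 in NSM and 138 ± 27.1 in SM. The difference between the male and the female effect, the sex-by-stress interaction, was 1.80 on the log2 scale (SE 0.30, adjusted p = 0.0131, limma). It was the only interaction of the 500 with an adjusted p under 0.05 in limma, and the adjusted p was over 0.05 without NSM pool 3 (0.0666), SM pool 1 (0.0842) or SM pool 2 (0.0553).

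mir-5099 also went in opposite directions, at 0.47 in males and -0.45 in females, with an interaction of 0.92 (adjusted p = 0.133, limma). The adjusted p of this interaction was 0.0122 without NSM pool 2, the pool that overlapped the SM pools. For the other miRs, a call in males without one in females does not show that the effects differ.

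**Figure D5:**
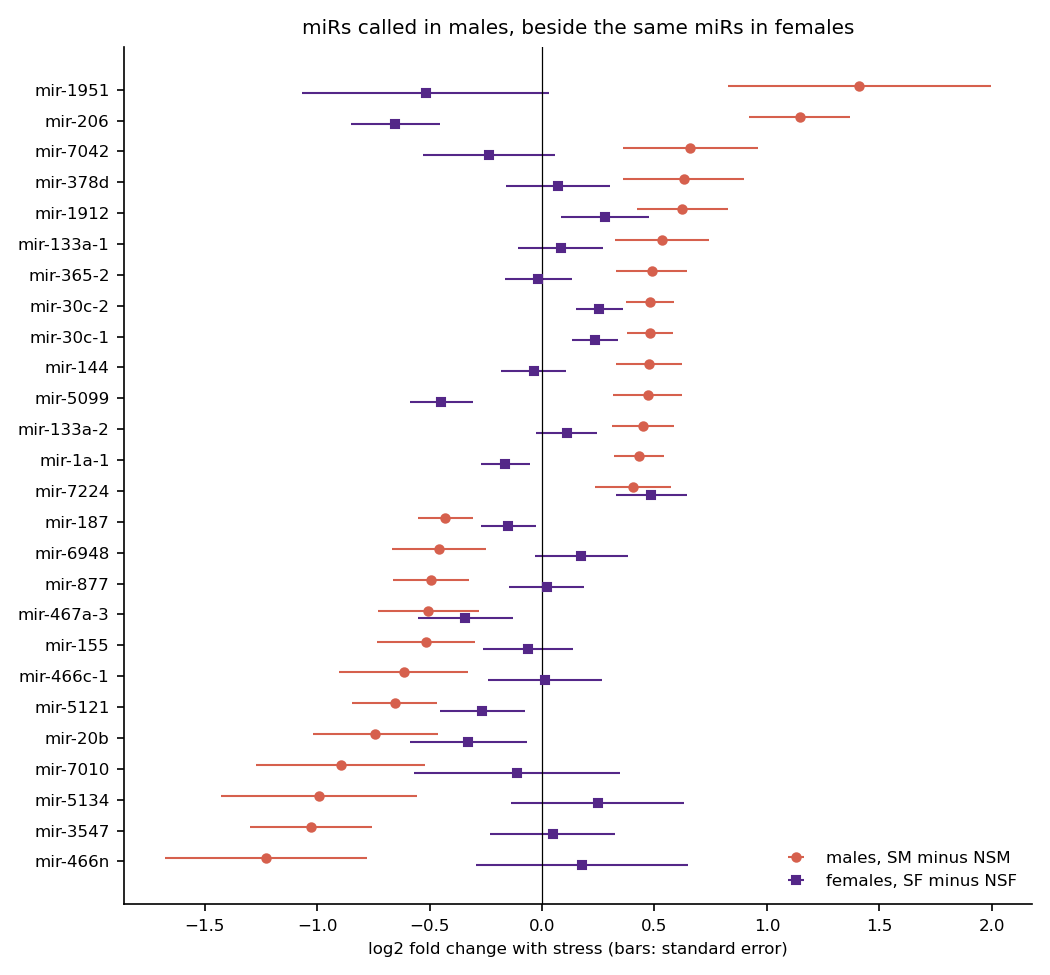
Log2 fold change with stress of the 26 miRs called in males, in males (SM minus NSM, circles) and in females (SF minus NSF, squares), with bars of 1 standard error. Male and female points lie on the same side of 0 for 13 miRs, and mir-206 (1.14 and -0.65) and mir-5099 (0.47 and -0.45) are far apart on opposite sides.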

How the data were processed

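Small RNA (under 200 bases) was enriched from pooled NAc homogenates and sequenced in 12 libraries, 3 per sex and stress condition, on 1 lane. The authors trimmed reads, discarded short ones, aligned the rest to mm9 with Bowtie and quantified them with HTSeq against miRBase release 21, by its mature annotation according to the study's methods. The rows of the deposited table carry precursor names and none names a 5p or 3p strand, and how reads of the strands were assigned to these rows is not given in the sources used here. The deposited values are raw counts without normalization, and the strand setting and the treatment of reads that align to several copies are not given in the sources used here. The large RNA fraction of the same pools was aligned to NCBIM37 with TopHat2, and the authors deposited raw counts per gene.

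Counts were analyzed in R 4.3.3 with limma 3.58.1, edgeR 4.0.16 and DESeq2 1.42.0. Features were kept where over 5 reads were counted in no fewer than 80% of a group's libraries, scaled by TMM factors, and fitted with voom and limma over the 12 libraries of an assay, with 1 mean per group. Limma's moderated tests compared SM with NSM, and p values were adjusted by Benjamini-Hochberg over the features of an assay. CPM are counts scaled to library size with TMM factors. Steps were tested on simulated data. Replicates were separate pools of mice, so that p values reflect the spread between pools.

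Precursors were matched to RefSeq by symbol or mature name (440 of 500) and placed on NCBIM37 by an exact match of the hairpin (409) or by the name in the GENCODE annotation (55). Coordinates are NCBIM37. Precursors within 10000 bases on the same strand formed a cluster by position. The clusters described by range and median were listed by name, and their members can lie farther apart. Plots used Python 3.11.15 and matplotlib 3.10.9.

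The families, clusters, marker lists and rules were chosen with earlier results of these data known. Values were named for called miRs, for up to 4 members of lists that hold one, for the 10 most abundant miRs, and for uncalled miRs with the smallest p or nearest to the bounds. Lists were described by counts and medians, without a test. The alternatives were other tests, scalings, filters, thresholds, weights, blocks by replicate number, thinning, a cortical marker covariate and leaving out each library, 18 analyses for the main comparison. Those chosen after seeing the data were 1 precursor per shared mature sequence and the alternatives for the interaction, host genes and markers.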

Additional observations from a re-analysis of the deposited data

Results flagged for a closer look

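The effect of stress on mir-206 differed between males and females by a test of the difference itself, the sex-by-stress interaction in limma, which was 1.80 on the log2 scale (adjusted p = 0.0131). In males the 3 SM pools were above the 3 NSM pools, and in females the mean was 203 CPM in NSF and 130.0 CPM in SF. The NSF mean was above the means of SM and NSM. Over the alternatives the adjusted p ranged from 0.0017 with the cortical marker covariate to 0.0842 without SM pool 1. Groups of 3 pools were too small to look for single pools that stand apart.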

How the results depend on the processing

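The 26 called miRs kept their direction in all 454 alternative values and fell below a threshold in 113. mir-206, mir-3547 and mir-5121 were called in all 18 analyses. The number called was 16 with DESeq2, 61 (20 higher, 41 lower) with every miR of at least 1 read, 62 without a minimum fold change, 12 at an unadjusted p under 0.01, and 18 (without NSM pool 3) to 32 when 1 library was left out. Thinned to the smallest library 24 were called, 15 of them among the 26. Adjusted p under 0.05, at 0 miRs in limma, was reached by 1 with edgeR, 6 with DESeq2, 3 with every miR of at least 1 read, 1 in a fit of the 6 male libraries, 1 after thinning, 1 with the cortical marker covariate, 1 with 1 precursor per shared mature sequence, and 0 to 3 when 1 library was left out, with 2 without NSM pool 3 and 3 without SM pool 3. The count of interactions (1) was 2 with the cortical covariate and 0 to 2 when 1 library was left out. Host genes called (1) were 2 with library size scaling and 1 to 2 when 1 library was left out, the additional gene being Sfmbt2. Marker mRNAs called (11) were 7 to 14 when 1 library was left out, with 7 without NSM pool 3 or SM pool 2, and all 5 tested red cell mRNAs were called each time. The cause of these shifts was not tested.

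Replicate numbers recur in both groups, and what they stand for is not given in the sources used here. Deviations of same-numbered pools from their group means correlated at 0.047, -0.020 and 0.294, against -0.215 to 0.188 for pools of different numbers. With so few pools these values cannot show whether the numbers pair the pools, and the main fit used no pairing. With the replicate block over 12 libraries 34 miRs were called, and 4 passed an adjusted p of 0.05. Over the 6 male libraries these counts were 32 and 10.

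Among named miRs that were not called, 19 of 828 alternative values reversed in sign, all of them of abundant miRs near 0. With the cortical covariate let-7b was at 0.0343, mir-139 at 0.0957, mir-124-1 at -0.0130, mir-124-3 at -0.00953 and mir-124-2 at -0.00999. mir-128-1 was at 0.00996 with DESeq2, 0.00227 with DESeq2 size factors, 0.00780 with every miR of at least 1 read and 0.0670 with sample quality weights. With these weights let-7f-2 was at -0.0245 and mir-128-2 at 0.0231. When 1 library was left out the ranges were -0.117 to 0.116 for mir-128-1, -0.0567 to 0.0684 for let-7f-2, -0.113 to 0.120 for mir-139 and -0.143 to 0.0636 for mir-128-2.

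Depth limits the low miRs most. 57 of the 500 tested miRs had a mean under 10 reads per male library, and 55 had a fold change of at least 1.3 with an unadjusted p of 0.05 or more. SM libraries were deeper than most NSM libraries, and counts do not separate copies of a mature sequence.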

Other observations

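Some miRs known to be abundant in brain, glia or blood were at or near 0 reads in the table. mir-126a (endothelium), mir-24-1 and mir-24-2, mir-219a-1, mir-219a-2 and mir-338 (oligodendrocytes), mir-142 (leukocytes), mir-451a and mir-486 (red blood cells), and mir-30e had at most 1 read in any male library. By RefSeq positions, 42 of the 1008 listed precursors with a position overlap the hairpin of another listed precursor, in every case on the opposite strand. None of the 42 had more than 3 reads in a male library or was tested, while 428 of the 966 others were tested.

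mir-1a-2, mir-1b and mir-133c had at most 1 read in any male library, so that the muscle family members described above are those with counts.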
